A study of Rattus norvegicus with 10 samples.

Results

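The jejunum of rats given the experimental compound A-998679 at 200 mg/kg/day was set directly against that of rats given 100 mg/kg/day, without the vehicle rats in the comparison. Arrays were chosen by their labelled dose and tissue, which gave 2 arrays at 200 mg/kg and 3 at 100 mg/kg, 5 of the 10 arrays of the series. A-998679 is a modulator of nicotinic acetylcholine receptors that the study examined as an activator of the aryl hydrocarbon receptor. Each array held total RNA of the jejunum of 1 male Sprague Dawley rat (labelled weight 176 to 200 g, age not given), dosed by mouth for 5 days, fasted overnight after the last dose and killed. The other 5 rats received 30 mg/kg/day (2 rats) or, in 3 cases, a daily volume of 10 ml/kg of the 0.2% HPMC vehicle alone, and their values are given as bystanders. The study followed Cyp1a1, a target of that receptor, in liver and gut, and setting the upper doses against each other asks what changes in the gut wall between them.

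The jejunum is lined by absorptive enterocytes, goblet cells that secrete mucus and Paneth cells that secrete antimicrobial proteins, over a lamina propria rich in macrophages, mast cells, lymphocytes and fibroblasts. Macrophages and dendritic cells take up antigen and show it to helper T cells on MHC class II molecules, whereas the epithelium releases C-type lectins of the Reg family that bind or kill bacteria at the mucosal surface. The aryl hydrocarbon receptor (AhR) is a ligand-bound transcription factor that switches on Cyp1a1 and other enzymes of drug metabolism and is also expressed in immune cells of the gut. In a piece of whole tissue, fewer cells of a type and less RNA per cell cannot be told apart.

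Intensities are given on the log2 scale, in which a difference of 1 is a 2-fold change, and rats are listed in the order of their labels. The 29559 probe sets (the array's groups of probes for a transcript) had a median log2 intensity of 5.86 to 5.91 per array, and 11.0% to 11.3% were blank. Of these, 17736 probe sets in the upper 60% of mean intensity were tested and 17687 could be fitted, which named 10195 genes. The 3 arrays at 100 mg/kg correlated with each other at r = 0.965 to 0.969 across probe sets, and the 2 arrays at 200 mg/kg at 0.946. The median absolute difference between the 2 rats at 200 mg/kg was 0.25, against 0.16 to 0.18 among the rats at 100 mg/kg and 0.20 to 0.28 between a rat of one dose and a rat of the other. The high-dose rats thus differed from each other about as much as from the rats at 100 mg/kg, and the number of arrays limits the precision of every value here. Replicates were different rats.

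Between the doses, 4 probe sets passed the limma test across all probe sets at an adjusted p of up to 0.05, which is 0.0226% of those fitted. Gpx2 and the unannotated probe set 1378966_at were higher at 200 mg/kg, and Mpeg1 and Slc25a42 were lower. At an adjusted p of up to 0.1 there were 13 probe sets and at up to 0.2 there were 38, of which 14 were higher and 24 lower at 200 mg/kg. Before adjustment, 1073 had a p of up to 0.05, where 884 would fall with no difference anywhere. Over all genes, taking the brightest probe set of each, the median log2 difference was 0.01 with quartiles of -0.15 and 0.16, and 70 genes were at least 2-fold higher and 93 at least 2-fold lower at 200 mg/kg.

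**Figure D1:**
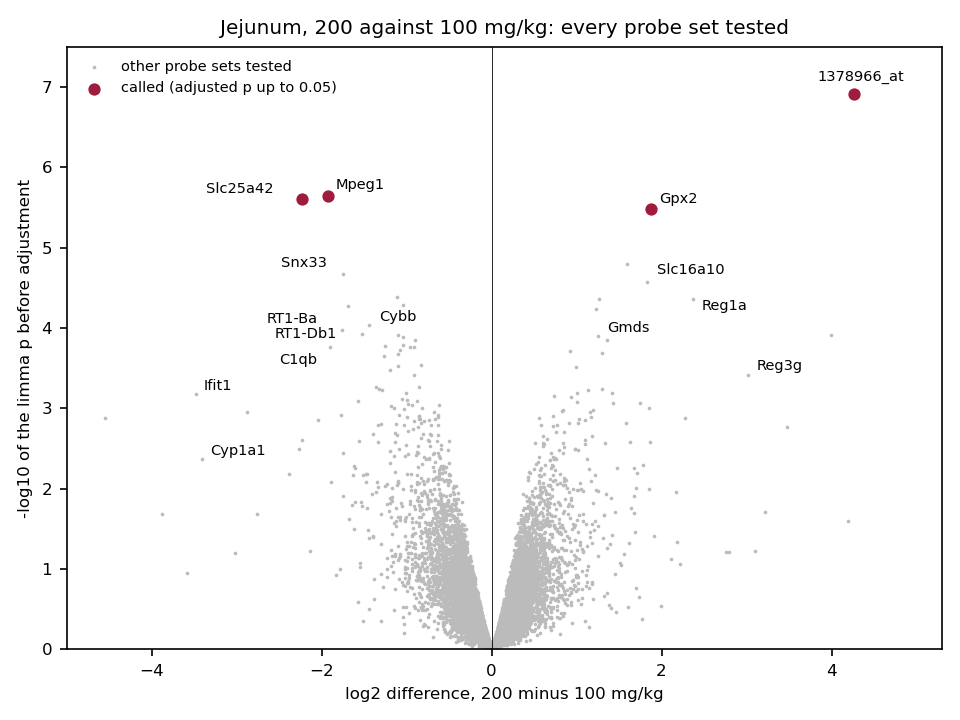
Log2 difference between 200 and 100 mg/kg (x axis) against the -log10 of the limma p before adjustment (y axis) for every probe set fitted, with the 4 called probe sets as large red points and other named genes labelled. Gpx2 and 1378966_at lie to the right, Mpeg1 and Slc25a42 to the left, and the unlabelled cloud is centred near 0.

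Gpx2, the gastrointestinal glutathione peroxidase that reduces lipid and hydrogen peroxides in epithelial cells, had log2 intensities of 9.84, 9.89 and 9.90 in the 3 rats at 100 mg/kg and of 12.06 and 11.43 in the 2 rats at 200 mg/kg. The vehicle rats stood between the doses, at 10.75, 10.72 and 10.80, as did the rats at 30 mg/kg, at 10.46 and 10.40. The log2 difference between 200 and 100 mg/kg was 1.87 (SE 0.18, limma adjusted p = 0.0147), a 3.66-fold rise between the group means, and no array of one dose reached those of the other. The rats at 100 mg/kg lay below all vehicle rats and the rats at 200 mg/kg above them.

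The bases before the Gpx2 start are shown because the antioxidant response element, the sequence bound by the oxidant sensor Nrf2 in many glutathione genes, has a match there. The 150 bases upstream of the annotated start (RefSeq, GRCr8) are printed 5′ to 3′ along the gene's strand, with the match to TGACNNNGC on either strand in capitals.
Gpx2, chr6:101230034-101230183 (- strand): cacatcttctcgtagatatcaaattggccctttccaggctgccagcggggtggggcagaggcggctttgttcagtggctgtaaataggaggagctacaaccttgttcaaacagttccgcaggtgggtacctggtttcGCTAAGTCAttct
The match starts 13 bases before the annotated start, on the opposite strand, and 6.58% of 33469 promoter windows of this length held one on either strand. It is a match of letters only, and binding was not measured.

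Other genes of oxidant defence lay on both sides of 0. Of 26 genes on that list, 24 were on the array and all 24 were tested. Gpx2 was the only call, and the median log2 difference over the list was 0.01, as over all genes. Before adjustment 3 genes were higher at a p of up to 0.05, against 2.76% of all genes, and 4 lower, against 3.57%. In the oxidant defence list 1 gene was higher without rat 2 or rat 3 at 100 mg/kg or rat 1 at 200 mg/kg, and 2 were lower without rat 2 or rat 3 at 100 mg/kg and 1 without rat 1 at 200 mg/kg. Thioredoxin (Txn1) had log2 intensities of 11.45, 11.31 and 11.14 at 100 mg/kg against 11.81 and 11.68 at 200 mg/kg, a difference of 0.45 (SE 0.17, limma adjusted p = 0.750). Gpx3, the glutathione peroxidase secreted into plasma, stood at 8.65, 8.75 and 8.82 against 7.62 and 8.37, a difference of -0.75 (SE 0.22, adjusted p = 0.541), and extracellular superoxide dismutase (Sod3) had a difference of -0.57 (SE 0.20, adjusted p = 0.654). Nqo1, a quinone reductase controlled by both Nrf2 and AhR, differed by 0.23 (SE 0.25, adjusted p = 0.978).

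Probe set 1378966_at, which names no gene in the annotation used, was dim in the rats at 100 mg/kg only. It had 2.25 and 2.32 in rats 1 and 2 and was blank in rat 3, against 6.69 and 6.43 at 200 mg/kg, 5.35, 5.25 and 5.90 with vehicle and 5.86 and 5.80 at 30 mg/kg. The log2 difference was 4.27 (SE 0.23, limma adjusted p = 0.00212), or 3.38 with the blank and the dim values set to a floor of 3.18. Values at 100 mg/kg lay below that floor, so the size of the difference depends on how dim signals are treated.

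Mpeg1 encodes perforin-2, a pore-forming protein that macrophages use to kill engulfed bacteria. Its log2 intensity was 9.41, 9.66 and 9.43 at 100 mg/kg and 7.38 and 7.76 at 200 mg/kg, a difference of -1.93 (SE 0.18, limma adjusted p = 0.0147) and a 3.81-fold fall. The rats at 200 mg/kg were at the level of vehicle (7.83, 7.53 and 7.78), whereas every rat at 100 mg/kg was above every vehicle rat. The second Mpeg1 probe set, 1369427_at, was blank on 5 arrays and was not tested.

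Slc25a42, which carries coenzyme A into mitochondria in exchange for nucleotides, showed the other arrangement. It stood at 6.41, 6.28 and 6.18 at 100 mg/kg, within the vehicle values of 6.23, 6.58 and 5.89, and at 4.22 and 3.90 at 200 mg/kg. The difference was -2.23 (SE 0.21, limma adjusted p = 0.0147), a 4.69-fold fall, and both rats at 200 mg/kg were below all other 8 arrays.

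The 4 calls depended on single rats. Without rat 1 at 200 mg/kg, or without rat 2 at 100 mg/kg, no probe set was called on the array, and the adjusted p of the 4 then lay between 0.0540 and 0.0953. Their log2 differences kept their direction and lay between 1.56 and 2.19 for Gpx2, -2.12 and -1.74 for Mpeg1, -2.39 and -2.07 for Slc25a42 and 4.14 and 4.40 for 1378966_at when any 1 rat was left out. Without rat 3 at 100 mg/kg 1 probe set was called, 1378966_at, and without rat 1 at that dose there were 9 calls, among them Mpeg1, Slc25a42 and 1378966_at but not Gpx2 (adjusted p = 0.0504). Without rat 2 at 200 mg/kg there were 15, Slc25a42 not among them (adjusted p = 0.0590). With the 5 arrays of these doses alone to estimate the spread, and with Student's t-test on them after Benjamini-Hochberg adjustment, 0 probe sets were called. The error model of Rosetta Resolver, which the authors used for the arrays, was not run here.

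**Figure D2:**
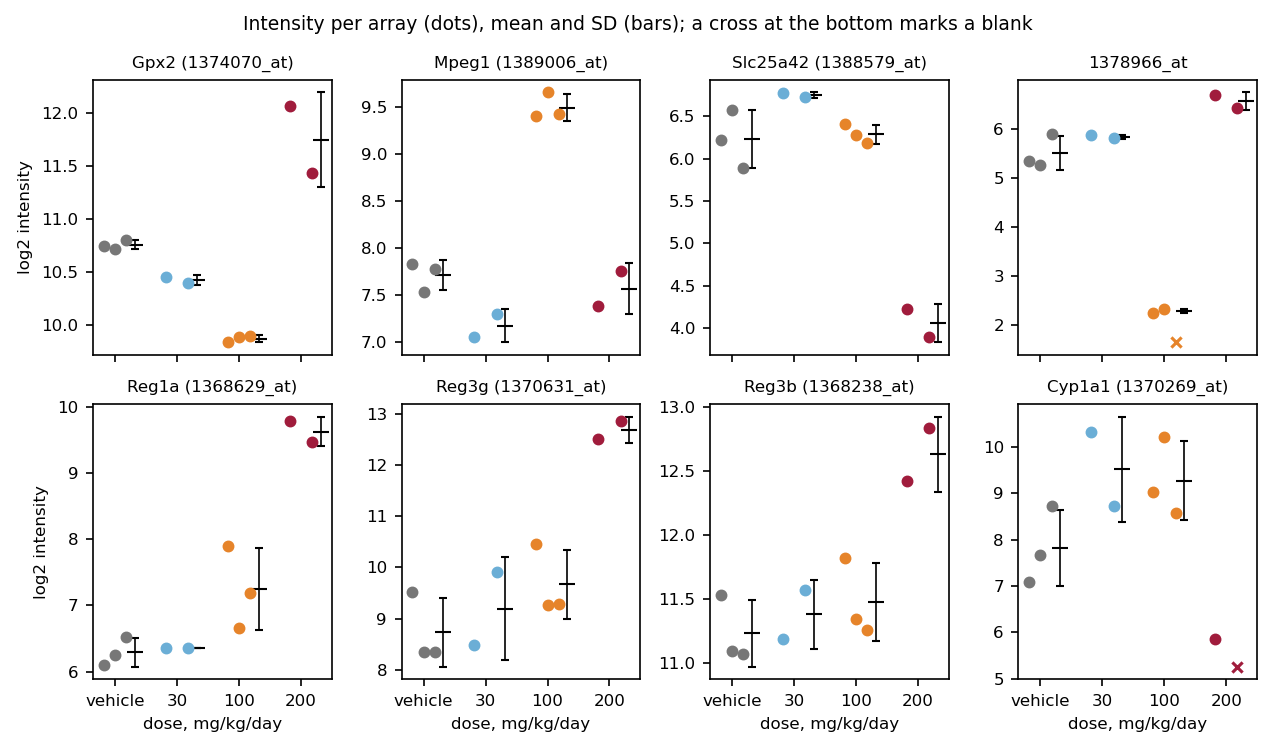
Log2 intensity (y axes, not starting at 0) on each of the 10 arrays by dose (x axes, mg/kg/day) for the 4 called probe sets, 3 Reg lectins and Cyp1a1; dots are rats, black bars the mean and SD of a group, and a cross at the bottom a blank. Gpx2 at 200 mg/kg (12.06 and 11.43) lies above all other rats, Mpeg1 is high only at 100 mg/kg (9.41 to 9.66), and Slc25a42 is low only at 200 mg/kg (4.22 and 3.90).

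Genes of antigen presentation by MHC class II had lower values at 200 than at 100 mg/kg. Of 12 genes on the list, 8 were on the array and tested. None was called by limma, but all 8 had a negative difference and 5 had a p of up to 0.05 before adjustment, against 3.57% of all genes in that direction. The median log2 difference was -1.05, against 0.01 over all genes. For 7 of the 8, every array at 200 mg/kg lay below every array at 100 mg/kg, which held for 13.8% of all genes. Because the gene lists were chosen with earlier results of these data known, the counts over every list here are a description.

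RT1-Da, the alpha chain of the rat counterpart of HLA-DR, had log2 intensities of 11.21, 11.27 and 10.92 at 100 mg/kg and of 10.17 and 9.91 at 200 mg/kg, a difference of -1.10 (SE 0.18, limma adjusted p = 0.119). The matching beta chain RT1-Db1 had 10.16, 10.14 and 9.74 against 8.46 and 8.52, a difference of -1.52 (SE 0.23, adjusted p = 0.115). Both chains at 200 mg/kg were below every vehicle rat, by a very small margin in rat 1 for RT1-Da, and vehicle ranged from 10.17 to 10.59 for RT1-Da and from 8.54 to 9.33 for RT1-Db1. The rats at 30 mg/kg were below vehicle as well, at 9.99 and 10.01 for RT1-Da and 7.81 and 7.78 for RT1-Db1. Cd74, the invariant chain that guides class II molecules to the endosome, had 11.81, 11.79 and 11.56 against 10.89 and 10.83 (difference -0.86, SE 0.16, adjusted p = 0.240). RT1-DMb, a subunit of the exchange factor that loads peptide onto class II, had 8.70, 8.97 and 8.72 against 7.83 and 7.37 (difference -1.19, SE 0.21, adjusted p = 0.163), and its partner RT1-DMa had 8.49, 8.59 and 8.49 against 7.73 and 7.31 (SE of the difference 0.24, adjusted p = 0.362). The class II transactivator Ciita, the master regulator of these genes, differed least, by -0.39 (SE 0.29, adjusted p = 0.942), with 6.66, 6.52 and 6.25 against 6.03 and 6.14.

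RT1-Ba was the member whose probe sets disagreed in size. Probe set 1370822_at had 9.93, 9.32 and 9.02 at 100 mg/kg against 7.55 and 7.77 at 200 mg/kg, a difference of -1.76 (SE 0.26, limma adjusted p = 0.115), but in the brighter probe set 1377334_at rat 1 at 100 mg/kg (8.87) lay below both rats at 200 mg/kg (8.96 and 9.02) and the difference was -0.82 (SE 0.56, adjusted p = 0.928). RT1-Bb ranged from 4.77 to 7.84 in the vehicle rats alone. RT1 genes are polymorphic and closely related to each other and these rats are outbred, so values of single RT1 genes are uncertain, and whether probe sets read alleles or neighbouring copies differently was not tested. Class I genes and the peptide loading machinery, by contrast, had a median difference of -0.02 over 17 tested genes, and B2m, the light chain of class I, differed by -0.02 (SE 0.16).

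Promoters of class II genes carry a conserved set of boxes, of which the Y box holds the CCAAT sequence bound by NF-Y. The 150 bases before the start of 3 class II genes are shown because their values ran the same way in the comparison, with CCAAT, on either strand, in capitals (RefSeq, GRCr8, 5′ to 3′ along the gene's strand).
RT1-Da, chr20:4515265-4515414 (+ strand): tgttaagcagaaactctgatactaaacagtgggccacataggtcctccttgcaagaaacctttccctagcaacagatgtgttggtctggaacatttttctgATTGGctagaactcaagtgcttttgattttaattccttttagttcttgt
RT1-Db1, chr20:4560163-4560312 (- strand): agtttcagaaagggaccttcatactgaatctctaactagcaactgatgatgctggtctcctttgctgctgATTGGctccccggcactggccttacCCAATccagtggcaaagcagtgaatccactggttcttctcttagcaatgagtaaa
RT1-Ba, chr20:4576907-4577056 (+ strand): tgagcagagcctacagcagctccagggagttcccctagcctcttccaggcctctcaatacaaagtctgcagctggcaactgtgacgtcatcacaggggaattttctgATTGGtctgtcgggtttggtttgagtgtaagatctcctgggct
The reverse form of the box starts 49 bases before the start in RT1-Da, 80 in RT1-Db1 and 43 in RT1-Ba, and RT1-Db1 has a second match, in the forward form, at 55 bases. A CCAAT match on either strand was found in 23.5% of the 33469 windows of this length, so a match as such is common, and no binding was measured here.

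Macrophage genes mostly had lower values at 200 mg/kg as well. The list held 31 genes of macrophages and granulocytes, of which 26 were on the array and 16 tested. None was called by limma, 14 had a negative difference, 9 of them with a p of up to 0.05 before adjustment, against 3.57% of all genes, and the median was -0.81. For 12 of the 16 the arrays of the doses did not overlap, all in this direction, against 13.8% of all genes. Cybb, the catalytic subunit of the phagocyte NADPH oxidase, had log2 intensities of 7.91, 7.94 and 7.59 at 100 mg/kg and 6.54 and 6.19 at 200 mg/kg, a difference of -1.44 (SE 0.21, adjusted p = 0.115). The complement subunit C1qb, made in the gut wall mostly by macrophages, had 8.38, 8.40 and 8.12 against 5.94 and 6.84 (difference -1.91, SE 0.31, adjusted p = 0.115), and its partner C1qc had 8.07, 8.33 and 8.05 against 6.89 and 7.20 (difference -1.11, SE 0.19, adjusted p = 0.156). Fcer1g, the signalling chain of several Fc receptors, differed by -0.71 (SE 0.16, adjusted p = 0.279). The exceptions were Cd14, the lipopolysaccharide co-receptor, and Ctss, a lysosomal protease, at 0.48 and 0.05, neither with a p of up to 0.05 before adjustment.

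Mast cell genes that could be tested showed the same order. Mast cells are marked by proteases of their granules, such as the chymase Mcpt1, in the rat a protease of connective tissue mast cells, and carboxypeptidase A3 (Cpa3). Of 23 genes on the list, 17 were on the array but only 5 passed the intensity filter. All 5 had a negative difference with no overlap between the doses, against 13.8% of all genes, 4 had a p of up to 0.05 before adjustment, against 3.57%, and none was called by limma. The dim genes left out ran both ways. Il1rl1 was higher in both rats at 200 mg/kg (5.42 and 5.93, against 5.19, 5.14 and 5.31). Mcpt10, Fcer1a and Kit were lower in both, and Tpsb2, Hpgds and Slc18a2 overlapped. The other dim genes had blanks at these doses. Mcpt1 had 9.48, 9.66 and 9.56 at 100 mg/kg and 6.88 and 7.71 at 200 mg/kg, a difference of -2.27 (SE 0.56, adjusted p = 0.380). The vehicle rats ranged from 6.24 to 8.31 for Mcpt1, so the rats at 200 mg/kg lay within vehicle and those at 100 mg/kg above it. Cpa3 differed by -1.09 (SE 0.27, adjusted p = 0.380), Mcpt9 by -1.14 (SE 0.29, adjusted p = 0.418) and the transcription factor Gata2 by -0.85 (SE 0.18, adjusted p = 0.277).

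Per array, the level of each of these 3 lists was highest in the rats at 100 mg/kg. The mean of the class II genes, each centred on its own mean over the arrays, was 0.73, 1.01 and 0.72 at 100 mg/kg and -0.14 and -0.26 at 200 mg/kg, against -0.90 to 0.04 with vehicle. For macrophage genes the values were 0.64, 0.55 and 0.37 against -0.20 and -0.28, with vehicle at -0.24 to 0.11. For mast cell genes they were 0.73, 0.88 and 0.95 against -0.40 and -0.19, with vehicle at -0.58 to -0.08. By list mean, the rats at 200 mg/kg were within the vehicle range for class II and mast cell genes. For macrophage genes rat 2 was just below it. Members of the class II list differed in this. At 200 mg/kg, RT1-Da, RT1-Db1, RT1-DMb and Cd74 lay below every vehicle rat in both rats. RT1-Bb and RT1-Ba 1377334_at lay above every vehicle rat, and RT1-DMa and Ciita within the vehicle range. The other RT1-Ba probe set, 1370822_at, lay below every vehicle rat. All 8 class II genes and all 5 mast cell genes kept a negative difference when any 1 of the 5 rats was left out, and 14 or 15 of the 16 macrophage genes were below 0 in each such fit.

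Other lymphoid lists were less uniform. T and NK cell genes had a median of -0.21 over 14 tested genes, 12 of them below 0, and Cd247, the zeta chain of the T cell receptor, differed by -0.35 (SE 0.14, limma adjusted p = 0.762). B and plasma cell genes had a median of -0.38 over 12 tested genes, of which 10 were below 0, but without rat 1 at 100 mg/kg or without rat 1 at 200 mg/kg only 5 were. Of these genes 3 were lower at a p of up to 0.05 before adjustment, against 3.57% of all genes, and 1 without rat 1 or rat 3 at 100 mg/kg. The 3 include Cd74, which is also counted in the class II list. In rat 1 at 100 mg/kg the B cell marker Ms4a1 was at 7.60, against 5.63 and 5.05 in the other 2 rats of that dose. The joining chain of secreted immunoglobulin, Jchain, had 10.72, 10.49 and 10.83 at 100 mg/kg and 9.16 and 10.19 at 200 mg/kg (SE of the difference 0.36, adjusted p = 0.692), and here the doses did not overlap.

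Interferon-induced genes had a median of -0.33 over 28 tested genes, with 23 below 0 and 6 lower at a p of up to 0.05 before adjustment, against 3.57% of all genes, or 3 without rat 1 at 200 mg/kg. None was called by limma. Ifit1, which binds foreign RNA, had the widest difference of the list, with log2 intensities of 6.53, 9.12 and 8.73 at 100 mg/kg and 4.77 and 4.52 at 200 mg/kg (difference -3.48, SE 0.67, limma adjusted p = 0.243). Vehicle rats had 8.52, 7.68 and 8.35, so both rats at 200 mg/kg were below vehicle, as was rat 1 at 100 mg/kg. Rsad2, the antiviral protein viperin, had 7.76, 7.76 and 8.18 against 5.61 and 7.23 (difference -1.48, SE 0.44, adjusted p = 0.542), which was mostly a low value in rat 1 at 200 mg/kg. Isg15 and Irf7, canonical members of the response, overlapped between the doses.

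Reg lectins had higher values at 200 mg/kg. Reg1a, a secreted lectin linked to epithelial growth and repair, had log2 intensities of 7.89, 6.66 and 7.18 at 100 mg/kg and 9.78 and 9.46 at 200 mg/kg, a difference of 2.38 (SE 0.32, limma adjusted p = 0.0778). Reg3g, which kills Gram-positive bacteria, had 10.46, 9.27 and 9.28 against 12.51 and 12.87 (difference 3.02, SE 0.54, adjusted p = 0.181), an 8.13-fold difference in means. Reg3b, its relative that binds Gram-negative bacteria, had 11.82, 11.34 and 11.25 against 12.42 and 12.84 (difference 1.16, SE 0.24, adjusted p = 0.277). In all 3 genes, both rats at 200 mg/kg were above all other 8 arrays, and rat 1 was the highest of the 3 rats at 100 mg/kg. None of the 3 passed the adjusted threshold.

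The Reg list also held Paneth cell genes. Of 15 genes, 10 were on the array and 7 were tested, and beside the 3 Reg genes these were lysozyme (Lyz2), Mmp7, Pla2g2a and Defa24. The defensin Defa24 had 12.23, 12.16 and 12.23 against 12.28 and 12.18, and Lyz2 differed by -0.20 (SE 0.14). Mmp7 and Pla2g2a were high only in rat 1 at 200 mg/kg, with 8.41 and 12.02 against 6.19 and 10.39 in rat 2. The list's median of 0.85 is the Mmp7 value, and without rat 1 at 200 mg/kg only the 3 Reg genes of the 7 were above 0. None was called by limma, and the 3 Reg genes were the members with a p of up to 0.05 before adjustment. Over all genes, 2.76% were higher at such a p. The 3 Reg genes were also the members higher at 200 mg/kg without overlap of the doses, which held for 15.2% of all genes.

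Upstream of their starts, the Reg genes have a TATA box match. The 150 bases before the start are shown for the 3 Reg genes with the largest differences, with TATAAA on either strand in capitals (RefSeq, GRCr8, 5′ to 3′ along the gene's strand).
Reg1a, chr4:112450316-112450465 (+ strand): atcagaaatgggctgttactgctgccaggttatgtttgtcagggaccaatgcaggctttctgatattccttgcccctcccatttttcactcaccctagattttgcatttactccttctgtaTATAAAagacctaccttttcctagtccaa
Reg3b, chr4:112419626-112419775 (+ strand): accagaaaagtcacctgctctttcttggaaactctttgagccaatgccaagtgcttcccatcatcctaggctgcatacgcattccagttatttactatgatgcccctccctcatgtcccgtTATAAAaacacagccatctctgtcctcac
Reg3g, chr4:112484739-112484888 (- strand): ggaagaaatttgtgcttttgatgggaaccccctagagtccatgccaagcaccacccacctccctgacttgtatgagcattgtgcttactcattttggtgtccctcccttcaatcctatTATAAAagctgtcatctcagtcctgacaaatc
The match starts 29 bases before the start in Reg1a and Reg3b and 32 in Reg3g, and 8.0% of the 33469 windows held one on either strand. All 3 genes lie close together on chromosome 4, with Reg3g on the opposite strand.

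Goblet cell genes were mostly level. Over 10 tested genes of 19 the median was 0.13, and the mucin Muc2 had 12.32, 12.19 and 12.35 at 100 mg/kg and 12.11 and 12.48 at 200 mg/kg. The exceptions were Spink4, a peptide of goblet and Paneth cells, with 8.81, 8.02 and 8.32 against 10.60 and 9.90 (difference 1.87, SE 0.45, limma adjusted p = 0.354), and Spdef, the transcription factor of goblet and Paneth cell maturation, with 7.10, 7.04 and 6.98 against 7.73 and 7.51 (difference 0.59, SE 0.16, adjusted p = 0.480). Both Spink4 values at 200 mg/kg were above the vehicle range of 7.60 to 8.91.

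Among the 15 leading genes with higher values at 200 mg/kg, chosen by their p with no overlap between the doses, Gpx2 was the only call. Slc16a10, an exporter of aromatic amino acids, had 5.83, 6.67 and 6.53 at 100 mg/kg and 8.17 in both rats at 200 mg/kg (difference 1.82, SE 0.23, limma adjusted p = 0.0675). Its vehicle values of 7.16 to 7.19 lay between the doses. Gmds, the first enzyme of GDP-fucose synthesis, had 7.90, 7.54 and 7.98 against 9.27 and 8.86 (difference 1.26, SE 0.19, adjusted p = 0.115), and both rats at 200 mg/kg were above every vehicle rat (7.57 to 7.88). Fam3d, a gut-secreted cytokine-like protein, had 6.53, 6.68 and 6.21 against 8.83 and 7.61 (difference 1.75, SE 0.35, adjusted p = 0.268). Abhd3, a phospholipase, differed by 1.00 (SE 0.17, adjusted p = 0.157), and its dimmer probe set, which was not tested, was also higher in both rats at 200 mg/kg (5.77 and 5.79, against 4.46 to 4.96). Sult1c2, a sulfotransferase of drug conjugation, differed by 1.42 (SE 0.27, adjusted p = 0.243).

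In 3 other leading genes, Map3k20, Rhd and Riox1, the vehicle mean was near or above that at 200 mg/kg. Map3k20, a kinase that senses stalled ribosomes, had 5.50, 5.01 and 4.76 at 100 mg/kg and 6.42 and 6.49 at 200 mg/kg (difference 1.36, SE 0.21, limma adjusted p = 0.115), with vehicle at 6.23 to 6.44. A brighter Map3k20 probe set differed by -0.06 (SE 0.26), so the gene's probe sets disagreed. Rhd and Riox1, a Rh antigen and a ribosomal oxygenase, differed by 1.01 and 0.73 with the vehicle mean above the 200 mg/kg mean in both genes. Shroom3, a regulator of apical cell shape, whose vehicle mean lay about midway between the doses, had a difference of 1.00 (SE 0.20, adjusted p = 0.268) in one probe set and 0.08 in a brighter one. The remaining leading genes, Zdhhc22, Psph and Ccdc134, had differences of 1.30, 1.13 and 0.94. A difference between the doses does not give the distance of either from vehicle.

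Among the 15 leading genes with lower values at 200 mg/kg, Mpeg1 and Slc25a42 were called and 5 others belonged to the class II and macrophage genes above. Snx33, a sorting nexin of membrane traffic, had 6.67, 6.70 and 6.63 at 100 mg/kg and 4.83 and 5.02 at 200 mg/kg (difference -1.74, SE 0.21, limma adjusted p = 0.0622), and both high-dose rats were below all other 8 arrays. Dstyk, a dual-specificity kinase, behaved alike in probe set 1395736_at, with 4.67, 5.43 and 5.27 against 3.35 and 3.53 (difference -1.69, SE 0.23, adjusted p = 0.0789), but its brighter probe set 1392588_at differed by only -0.12 (SE 0.13). Hk1, a hexokinase, had 7.13, 7.11 and 7.06 against 6.04 and 6.08 (difference -1.04, SE 0.16, adjusted p = 0.115), while a dimmer Hk1 probe set differed by 0.99 (SE 0.48). Tril, a co-receptor of the innate receptor for lipopolysaccharide, had 7.06, 7.22 and 7.02 against 6.15 and 6.26 (difference -0.90, SE 0.14, adjusted p = 0.115). Spon1, a secreted matrix protein, differed by -1.27 (SE 0.21, adjusted p = 0.124), with the 200 mg/kg rats close to vehicle. Tmem64, the synaptobrevin Vamp1 and the mitochondrial elongation factor Tufm differed by -1.05, -0.96 and -1.08 in their leading probe sets, but other Tmem64 probe sets differed by -0.49 and 0.21, the brightest Tufm probe set differed by 0.12 and the brightest of Vamp1 by 0.02, so these genes are uncertain.

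**Figure D3:**
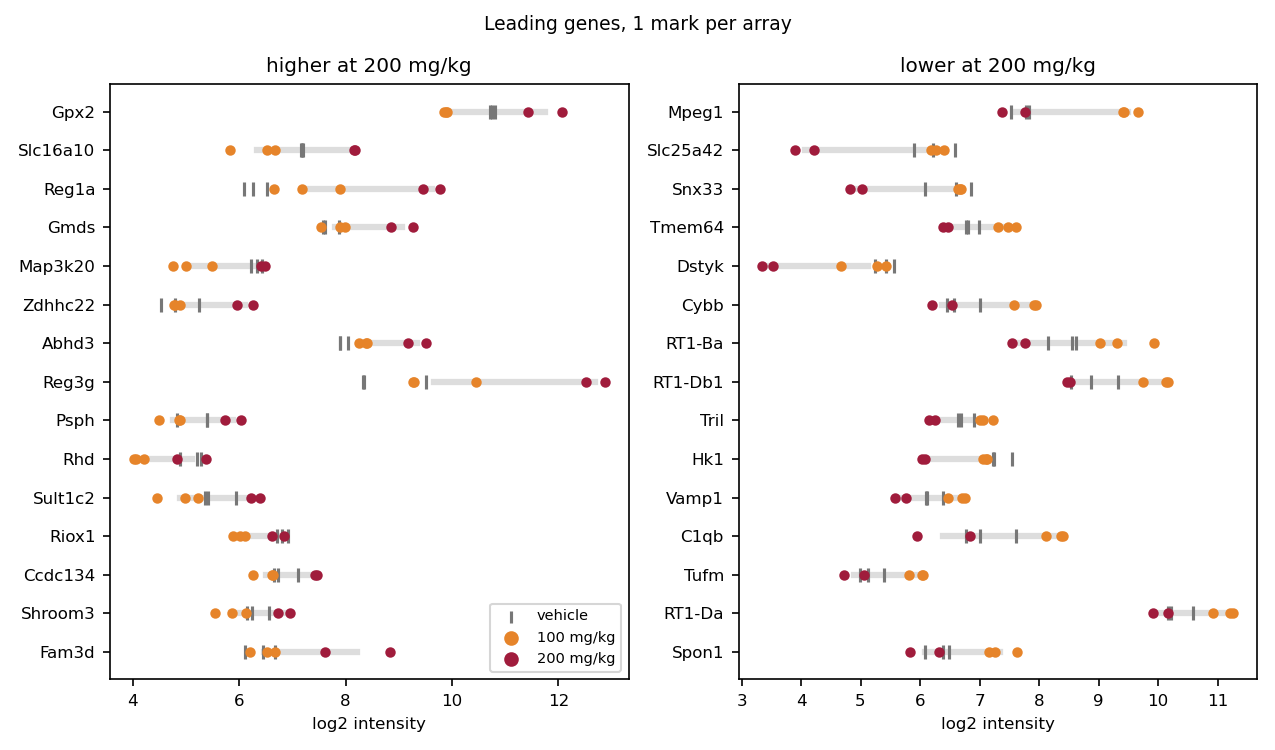
Log2 intensity (x axis) per array for the 15 leading genes in each direction, with 100 mg/kg rats in orange, 200 mg/kg rats in dark red, vehicle rats as grey ticks and a grey bar from the mean of one dose to that of the other. Vehicle ticks are on average nearer the 200 mg/kg dots for Mpeg1, Cybb, RT1-Da and RT1-Db1 and closer to midway for RT1-Ba. They sit near the 100 mg/kg dots for Slc25a42, Snx33 and Dstyk.

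The place of the vehicle rats differed among the leading genes. Of the 15 leading lower genes, the vehicle mean lay between the doses and nearer 200 mg/kg in 9, between them and nearer 100 mg/kg in 4, and beyond the 100 mg/kg mean in 2. Of the 15 leading higher genes, it lay between and nearer 200 mg/kg in 1, between and nearer 100 mg/kg in 7, beyond the 200 mg/kg mean in 2 and beyond the 100 mg/kg mean in 5. Over all probe sets these shares were 11.7% and 11.4% for the positions between the doses, 42.2% beyond 200 mg/kg and 34.7% beyond 100 mg/kg. Leading genes were chosen for a wide gap between the doses, which leaves more room for vehicle to fall inside it, so these counts are a description.

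Chaperones and enzymes of protein folding in the endoplasmic reticulum, the targets of the unfolded protein response, had small positive differences across the list. Of 23 genes, 22 were on the array and tested, 18 were above 0, 9 were higher at a p of up to 0.05 before adjustment, against 2.76% of all genes, and none was called by limma. For 15 of the 22 the doses did not overlap in this direction, which held for 15.2% of all genes, and the median was 0.29. Pdia4, a disulfide isomerase, had log2 intensities of 7.62, 7.57 and 7.58 at 100 mg/kg and 8.69 and 8.54 at 200 mg/kg, a difference of 1.02 (SE 0.26, adjusted p = 0.380), though vehicle rats ranged from 7.68 to 8.40. Hyou1, a chaperone of the same compartment, had 8.21, 8.13 and 8.26 against 8.77 and 8.75 (difference 0.56, SE 0.12, adjusted p = 0.277), above all vehicle rats (8.18 to 8.25). Sdf2l1 differed by 0.76 (SE 0.18, adjusted p = 0.317) and Dnajc3 by 0.45 (SE 0.13, adjusted p = 0.511). Hspa5, the abundant chaperone BiP, differed by 0.41 (SE 0.14, adjusted p = 0.674), with 10.92, 10.80 and 10.95 against 11.24 and 11.36. The list's exceptions included Ddit3, the stress transcription factor CHOP, which differed by -0.54 (SE 0.17, adjusted p = 0.604), and Xbp1, which overlapped between the doses. Without rat 2 at 200 mg/kg 5 genes were higher at a p of up to 0.05, without rat 2 at 100 mg/kg 6, and without any other of the 5 rats 7 or 8.

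Enzymes of amino acid synthesis were the members with a positive difference and a p of up to 0.05 before adjustment in the amino acid stress list. Over all genes, 2.76% were higher at such a p. The list's median over 16 tested genes was 0.09. None was called by limma. Psph, the last enzyme of serine synthesis, had 4.50, 4.88 and 4.86 at 100 mg/kg and 6.03 and 5.73 at 200 mg/kg (difference 1.13, SE 0.22, limma adjusted p = 0.240). Asns, asparagine synthetase, had 5.75, 5.93 and 5.67 against 7.17 and 6.46 (difference 1.03, SE 0.22, adjusted p = 0.277), and Psat1, which acts before Psph in the same pathway, had 6.23, 6.32 and 6.02 against 7.12 and 6.52 (difference 0.63, SE 0.21, adjusted p = 0.635). Phgdh, the first enzyme of that pathway, overlapped between the doses, as did Trib3, Chac1 and Sesn2, other targets of the same stress response. Ddit3, named above and also on this list, ran the other way without overlap. It had 7.42, 7.76 and 7.68 at 100 mg/kg against 6.89 and 7.27 at 200 mg/kg (difference -0.54, SE 0.17, limma adjusted p = 0.604).

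Genes of fibroblasts and extracellular matrix had small negative differences in nearly every member. Of 34 genes, all were on the array and 33 were tested. None was called by limma, 32 were below 0, 12 of them at a p of up to 0.05 before adjustment, against 3.57% of all genes, and in 26 the doses did not overlap, against 13.8% of all genes. The median was -0.38. Col6a2, a chain of the microfibrillar collagen VI, had 8.59, 8.60 and 8.75 at 100 mg/kg and 7.70 and 7.94 at 200 mg/kg (difference -0.83, SE 0.14, adjusted p = 0.154). Mfap4, a glycoprotein of elastic fibres, had 7.30, 7.03 and 6.82 against 6.15 and 5.94 (SE of the difference 0.19, adjusted p = 0.243), and both rats at 200 mg/kg were below vehicle (7.18 to 7.55). Col18a1, a basement membrane collagen, differed by -0.99 (SE 0.20, adjusted p = 0.264) and the gelatinase Mmp2 by -0.93 (SE 0.19, adjusted p = 0.270). Timp1 was the 1 member above 0, at 0.38. With any 1 of the 5 rats left out, 28 to 32 members were below 0, and the count at a p of up to 0.05 was 9 without rat 3 at 100 mg/kg, 8 without either rat at 200 mg/kg, 7 without rat 1 and 6 without rat 2 at 100 mg/kg.

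The mean level of the matrix list was -0.07, 0.04 and -0.02 at 100 mg/kg and -0.47 and -0.40 at 200 mg/kg, and the vehicle rats ranged from -0.08 to 0.35. Both rats at 200 mg/kg were thus below every other rat. Endothelial genes had a median of -0.34 over 16 tested genes with 15 below 0, led by endoglin (Eng, difference -0.73, SE 0.19, adjusted p = 0.430) and the adhesion molecule Vcam1 (difference -0.96, SE 0.32, adjusted p = 0.635), but without rat 1 at 200 mg/kg 9 of the 16 were below 0. Endothelial genes lower at a p of up to 0.05 before adjustment numbered 4, against 3.57% of all genes, and 1 without rat 1 or 2 without rat 2 at 100 mg/kg. Smooth muscle genes had a median of 0.25, with 17 of 18 above 0 and none at a p of up to 0.05 before adjustment. Desmin (Des) had 9.96, 10.14 and 10.08 against 10.79 and 10.07, so rat 2 at 200 mg/kg was within the rats at 100 mg/kg. Without rat 1 at 200 mg/kg 11 of the 18 were above 0. The mean smooth muscle level was -0.53, -0.54 and -0.53 at 100 mg/kg and -0.16 and -0.51 at 200 mg/kg, with vehicle at -0.12 to 0.60. The part of muscle RNA in the other list differences was not tested.

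**Figure D4:**
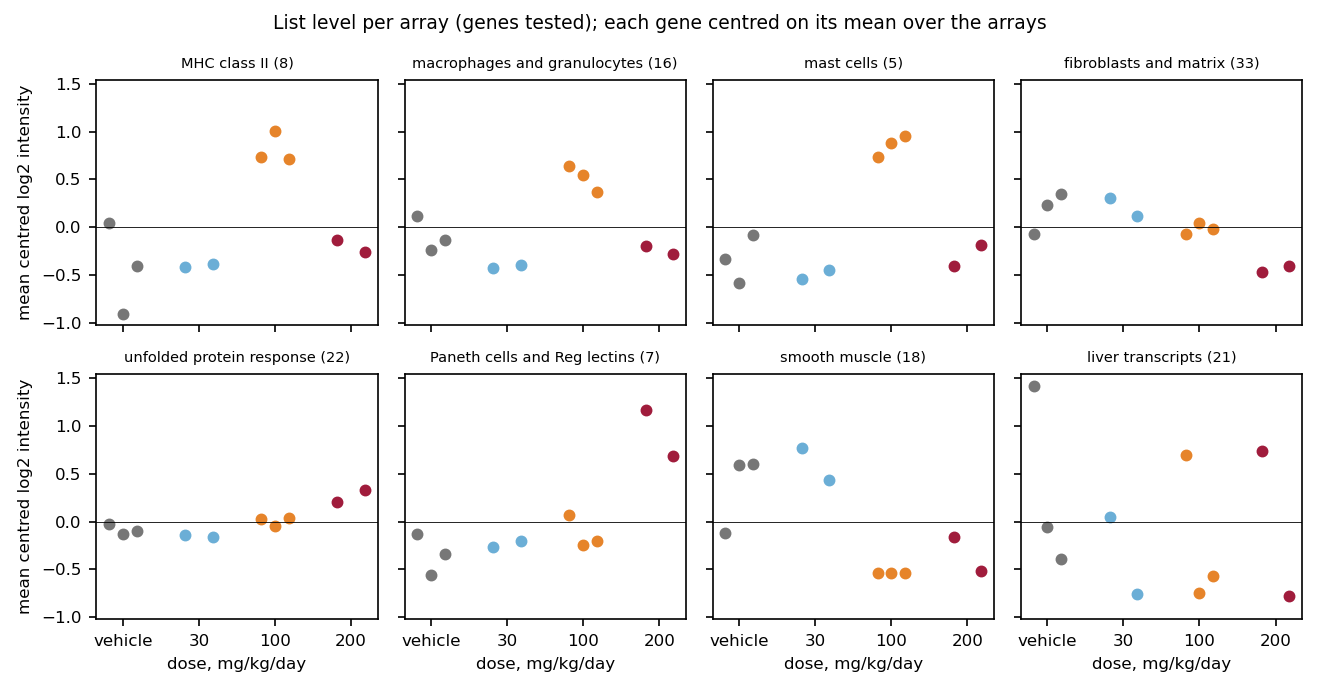
Mean centred log2 intensity of 8 gene lists (y axis) on each of the 10 arrays by dose (x axis, mg/kg/day), with the number of genes tested in brackets. Class II, macrophage and mast cell genes peak in the 100 mg/kg rats, matrix genes are lowest in the 200 mg/kg rats (-0.47 and -0.40), and liver transcripts are high in rat 1 of vehicle (1.42), 100 mg/kg (0.70) and 200 mg/kg (0.74).

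Genes of the cell cycle and DNA replication had a median of 0.29 over 37 tested genes of 42, with 30 above 0. Of these, 3 had a p of up to 0.05 before adjustment, against 2.76% of all genes in that direction. With 1 rat left out, the median lay between 0.03 and 0.49. E2f1, a transcription factor of S phase entry, had 4.31, 4.30 and 4.66 at 100 mg/kg and 5.96 and 5.25 at 200 mg/kg (difference 1.18, SE 0.28, limma adjusted p = 0.330), and the mitotic kinase Aurka had 6.04, 5.76 and 5.67 against 7.21 and 6.72 (difference 1.14, SE 0.31, adjusted p = 0.483). The mean level of the list was 0.26 in rat 1 and -0.20 in rat 2 at 200 mg/kg, against -0.34 to -0.17 at 100 mg/kg, and without rat 1 at 200 mg/kg 20 of the 37 were above 0. The vehicle values of E2f1, at 5.66, 5.79 and 5.60, lay between those of the 2 rats at 200 mg/kg.

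Cyp1a1, the AhR-driven enzyme the study followed, had the widest difference of the AhR genes but did not pass the test. It stood at 9.02, 10.21 and 8.57 in the 3 rats at 100 mg/kg, against 5.86 in rat 1 and a blank in rat 2 at 200 mg/kg. The log2 difference of -3.40 (SE 0.85, limma adjusted p = 0.430) rests on 1 array at 200 mg/kg, and with the blank at the floor of 3.18 it was -4.75 (adjusted p = 0.191). The measured array at 200 mg/kg lay below all other arrays, vehicle included (7.09, 7.66 and 8.71). Of 12 genes in the AhR battery, 10 were on the array and 7 tested, 6 of them below 0, with a median of -0.34. Without rat 1 at 200 mg/kg Cyp1a1 had no value at that dose, and 3 of the 6 genes left were below 0. The AhR repressor Ahrr had 6.16, 6.67 and 6.22 against 6.08 and 5.35 (difference -0.63, SE 0.30, adjusted p = 0.851). Cyp1b1, a second AhR-driven P450, differed by -0.24 (SE 0.16), Ahr itself by -0.38 (SE 0.35), and Tiparp, an AhR-induced repressor, by -0.34 (SE 0.23) in one probe set and -0.08 in the other. Cyp1a2 lay below the intensity filter, with 4.54, a blank and 1.63 at 100 mg/kg and 4.61 and a blank at 200 mg/kg.

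In genes of drug metabolism and absorption the 2 rats at 200 mg/kg often lay far apart. Abcc2, an apical efflux pump for conjugated drugs, had 7.41 in rat 1 and 9.48 in rat 2 at 200 mg/kg, around 9.24, 8.83 and 9.26 at 100 mg/kg (difference -0.66, SE 0.51, limma adjusted p = 0.952). Abcc3, the basolateral pump, had 6.94, 6.44 and 6.52 against 7.34 and 7.24 (difference 0.66, SE 0.65, adjusted p = 0.975). Of 17 tested P450s other than the CYP1 family, 15 were below 0, with a median of -0.12, but without rat 1 at 200 mg/kg only 6 were. Cyp4f5, a fatty acid hydroxylase, had 7.35 in rat 1 and 9.50 in rat 2, against 9.62, 9.69 and 10.13 (difference -1.39, SE 0.57, adjusted p = 0.789), and Cyp2j4, which makes epoxides of arachidonic acid, had 9.45 and 10.65 against 10.92, 10.89 and 11.05 (difference -0.91, SE 0.31, adjusted p = 0.652). The enterocyte alkaline phosphatase Alpi showed the same split, with 10.41 and 12.15 against 11.87, 11.81 and 12.12. S100g, the vitamin D-dependent calcium binding protein of the enterocyte, had 7.41 in rat 1 and 11.25 in rat 2, against 9.24, 7.75 and 8.81. Lists of brush border hydrolases and of enterocyte nutrient transporters had medians of -0.02 and 0.12, and none of the 19 hydrolase genes had a p of up to 0.05 before adjustment. These medians depended on which rat at 200 mg/kg was kept: they were 0.22 and 0.26 without rat 1 and -0.20 and -0.11 without rat 2, when 2 hydrolase genes were lower at a p of up to 0.05.

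RNA of other tissues was looked for in the same arrays. Transcripts typical of liver had a mean level of 0.70 in rat 1 and -0.75 and -0.57 in rats 2 and 3 at 100 mg/kg, and of 0.74 in rat 1 and -0.78 in rat 2 at 200 mg/kg. Albumin (Alb) had 10.74, 7.98 and 7.84 at 100 mg/kg and 10.75 and 6.41 at 200 mg/kg, so each dose had 1 rat with a raised level (difference -0.27, SE 1.42, limma adjusted p = 0.999). The 21 tested liver genes of 36 had a median difference of 0.14, with 13 above 0, and none had a p of up to 0.05 before adjustment. That median was -0.44 without rat 1 at 200 mg/kg, with 2 of the 17 liver transcripts left above 0, and 0.82 without rat 2, with 19 above 0. It was 0.49 without rat 1 at 100 mg/kg and -0.07 or -0.06 without rat 2 or rat 3. Transcripts of exocrine pancreas, of fat and of blood cells had medians of 0.08, -0.09 and -0.17 over 4, 14 and 6 tested genes. Rat 1 had the highest liver transcript level of each dose. The part of these RNAs in the differences above was not tested.

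**Figure D5:**
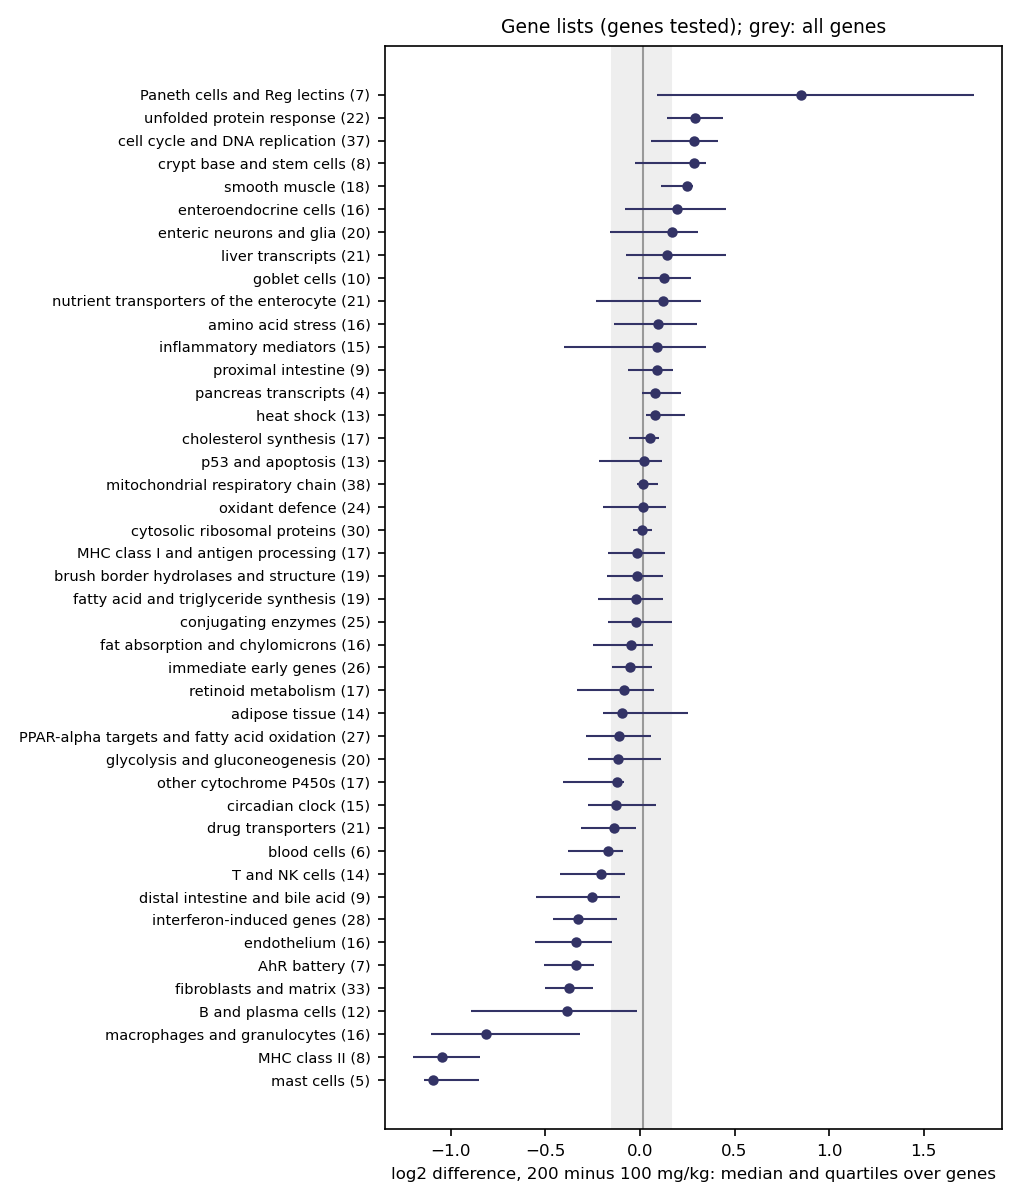
Median (point) and quartiles (line) of the log2 difference between 200 and 100 mg/kg for each gene list with at least 4 genes tested (number in brackets), with the quartiles of all genes as a grey band and their median as a grey line. Mast cell (-1.09), class II (-1.05) and macrophage (-0.81) genes have the lowest medians and the Paneth cell and Reg list (0.85) the highest.

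The medians of 26 of the 45 gene lists lay within the quartiles of all genes. Median differences were 0.01 over 30 cytosolic ribosomal proteins, 0.02 over 38 genes of the mitochondrial respiratory chain and 0.08 over 13 heat shock genes. Over 17 genes of cholesterol synthesis the median was 0.05, but -0.32 without rat 1 at 200 mg/kg, with 1 gene above 0, and 0.31 without rat 2, with 14 above 0. Genes of fatty acid oxidation had a median of -0.11 and conjugating enzymes of -0.02, or 0.05 and 0.20 without rat 1 at 200 mg/kg. Among conjugating enzymes, the acetyltransferase Nat2 had 6.74, 6.70 and 7.01 at 100 mg/kg and 5.94 and 5.85 at 200 mg/kg (difference -0.92, SE 0.17, limma adjusted p = 0.298). The inflammatory mediators went in both directions: Duox2, the epithelial oxidase that releases hydrogen peroxide, had 5.38, 6.11 and 5.77 against 8.17 and 6.25 (difference 1.45, SE 0.51, adjusted p = 0.671), whereas the chemokine Cxcl3 had 5.33, 5.21 and 5.57 against 3.80 and 4.64 (difference -1.15, SE 0.24, adjusted p = 0.277) and the cytokine Il1b differed by -0.63 (SE 0.21, adjusted p = 0.635). The nicotinic and muscarinic receptors were mostly dim, since of 15 on the array 1 passed the intensity filter. Among probe sets with no gene name, 1377066_at (difference 1.59, adjusted p = 0.0567) and 1395681_at (1.26, adjusted p = 0.0778) were the next highest after 1378966_at, and 1376464_at (-1.11, adjusted p = 0.0778), 1391124_at (-1.10, adjusted p = 0.115) and 1394475_at (-1.04, adjusted p = 0.115) were lowest by p. Probe set 1377066_at was blank in vehicle rat 3. With blanks at the floor of 3.18, its difference was the same but the SE was 0.93 and the limma adjusted p 0.912.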

How the data were processed

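Biotin-labelled target from the jejunum RNA of each rat was hybridised to 1 RAE230 array. The authors used Rosetta Resolver, and the deposited values are log10 intensities per probe set; its background correction and scaling were not given in the sources used here. A second deposited table holds fold changes that the authors computed, rat by rat, over vehicle; it was not used.

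Values were converted to log2, with blanks kept as missing. Probe sets in the lowest 40% by mean intensity were removed. Differences were tested with limma 3.58.1 in R 4.3.3, on 1 mean per dose group with all 10 arrays sharing the estimate of spread, as the contrast 200 minus 100 mg/kg (two-sided, Benjamini-Hochberg adjustment). The script was tested on simulated data. Where a floor is named, it is the 10th percentile of all values. In the annotation 19952 probe sets name 1 gene, 428 several and 9179 none.

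The members and the 45 gene lists were chosen with earlier results of these data known. The brightest probe set stands for a gene in a list. Named genes were Cyp1a1 and 8 related genes, up to 15 genes per direction by p with no overlap between the doses, the 4 members of each list with the smallest p, and 3 unnamed probe sets per direction. List members outside this rule, such as Cd14, Defa24, Muc2, Xbp1, Des and Alb, were picked with their values in view. Alternatives were other filters, floors and scalings, array weights, the methods' t-test, a block on rat number and leaving out each rat. Tables and plots were made with pandas 2.3.3 and matplotlib 3.10.9.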

Additional observations from a re-analysis of the deposited data

How the results depend on the processing

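The count of calls moved with the processing, whereas the log2 differences of the 4 called probe sets kept their direction in every alternative that gave a value. Against 4 calls (2 higher, 2 lower), there were 9 with no intensity filter (6 lower), 8 with the lowest 60% of probe sets left out (4 and 4), 8 with a floor at the 25th percentile (5 higher), 10 on log2(intensity + 16) (6 and 4), 8 with array weights, whose estimation did not fully converge (4 and 4), and 1 higher with an intensity trend and robust variance, of 3 in all. With the 5 arrays of these doses alone there were 0 calls (0 and 0), and with Student's t-test 0 after adjustment (0 and 0) and 1500 before it (771 and 729). Leaving out 1 rat at a time gave 0 to 15 calls, 0 to 4 higher and 0 to 13 lower, including 7 without vehicle rat 3. Median centring and quantile normalization gave 4 calls each.

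No paired design was in place, since rats were different animals. Deviations of same-numbered rats correlated at 0.11 (rat 1) and -0.13 (rat 2) between these doses. With rat number as a replicate block there was 1 call (1 higher, 0 lower), 1378966_at, and the adjusted p was 0.131 for Gpx2, 0.131 for Mpeg1 and 0.104 for Slc25a42.

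Directions turned for 15 of 2224 values of single probe sets, none of them called. Under the replicate block these were Tiparp 1385407_at (0.024), Map3k20 1372606_at (0.0096), Vamp1 1370556_at (-0.060) and Vamp1 1373510_at (-0.051). Leaving out 1 rat gave ranges of -0.83 to 0.071 for Ahr, -0.17 to 0.012 for Tiparp 1385407_at, -1.70 to 0.37 for Abcc2, -1.52 to 0.22 for Alpi, -1.20 to 2.65 for S100g, -0.19 to 0.074 for Map3k20 1372606_at, -0.22 to 0.64 for Tmem64 1373909_at, -0.0061 to 0.044 for Vamp1 1373510_at and -0.076 to 0.31 for Tufm 1371962_at. The cause of these changes was not tested. Low signals limit the probe sets near the floor, and 160 tested probe sets had a blank among the 5 arrays.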
